A study of Mus musculus with 3 samples.

Results

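The TNF ligand and receptor superfamilies were followed in RNA-seq gene counts from mouse cells labelled T-helper 1. Members were the genes with a symbol starting with Tnfsf or Tnfrsf, together with Tnf, Lta, Ltb, Ltbr, Fas, Fasl, Cd40, Cd40lg, Cd27, Cd70, Eda, Edar and Ngfr. This gave 46 of the 50600 genes in the tables: 18 ligands, 26 receptors and 2 further gene models, the antisense gene Tnfsf13os and the readthrough gene Tnfsfm13. The samples were 3 biological replicates of primary T-helper 1 cells of strain C57BL/6NJ, with separate biosample records but 1 donor record, and with age, sex and stage not given. A protocol for the differentiation of CD4 T cells is attached to the labels, and the file headers carry a 16 hr tag. All 3 libraries formed 1 group with no second condition, so each level was set against the spread between these libraries. Nothing in the labels says that the replicates came from separate animals.

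TNF superfamily ligands are mostly trimeric proteins on the cell surface or shed from it, and each binds receptors that gather adaptor proteins inside the receiving cell. Some receptors carry a death domain and can start apoptosis, others recruit TRAF adaptors and switch on NF-kB and survival signals, and a few are decoys without signalling parts. In helper T cells the family is known for late costimulation through receptors such as OX40 and GITR, for help to B cells and dendritic cells through CD40 ligand, and for inflammation through TNF and the lymphotoxins.

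The gene counts summed to 4764598, 2568928 and 2815439 in replicates 1, 2 and 3, of which members held 5795, 2870 and 2057. Replicate 2 stood apart in its low counts. Genes with 1 to 5 counts made up 9.86% of the genes counted in replicate 2, against 25.3% in replicate 1 and 26.5% in replicate 3. The libraries also differed in genes of the sex chromosomes: replicates 1, 2 and 3 held 807, 1110 and 4 counts of Xist, the X-inactivation RNA, and 161, 0 and 81 counts of Ddx3y, a gene of the Y chromosome. The Y-linked genes Eif2s3y, Kdm5d and Uty likewise had counts in replicates 1 and 3 and 0 in replicate 2. Replicates 2 and 3 thus go against a single donor animal for both, and replicate 1 held RNA of both kinds. The spread between libraries includes this difference, and its part in the levels below was not tested. Over 9932 coding genes with a mean of at least 1 TPM, the median deviation from a gene's own mean log2(TPM + 1) was 0.32, 0.11 and -0.41, so a gene that follows the library is lowest in replicate 3. TPM is the count per kilobase of exon scaled to the same fixed total in each library, and 1 TPM was worth 2.25 counts per kilobase in replicate 1, 1.28 in replicate 2 and 1.59 in replicate 3.

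Reads were counted on 1 strand setting and the library kit is not given in the sources used here, so the flag for genes of the opposite strand matters. Across the whole table, genes whose exons overlap exons of an opposite-strand gene held 56.1%, 60.3% and 71.6% of the counts in replicates 1, 2 and 3. Such overlap was found in 6 of 46 members, beside 16.2% of all genes, so members are not set apart by it. The 6 members held 5.35%, 6.03% and 6.85% of the members' counts. These were Tnfrsf18, Tnfrsf26, Tnfrsf23, Tnfsf13, Tnfsf13os and Tnfsfm13, and Tnfrsf18 was the only detected member among them. Tnfrsf18, with 301, 173 and 135 counts, shares 414 exon bases with the antisense gene Gm16008, which had 5314, 2540 and 5366 counts in replicates 1, 2 and 3. Per kilobase Gm16008 had 20.3, 16.9 and 45.8 times the counts of Tnfrsf18. The other overlapping genes were sparse: E230032D23Rik, opposite Tnfrsf26 and Tnfrsf23, had 9, 1 and 7 counts. A further 7 members overlap the body of an opposite-strand gene, wholly or in part, without exon overlap, namely Cd27 with Vamp1, Tnfrsf9 with Camta1, Tnfsf9 with Gm11110, Tnfrsf13b with Gm12269, Tnfrsf22 with E230032D23Rik, Tnfsf13b with Gm44789 and Tnfsf12 with Tnfsf13os. Another 8 members have an opposite-strand gene within 5 kb, and 25 have none. Some opposite-strand genes within 5 kb held more counts per kilobase than the member, and others fewer. Espn, 212 bases from Tnfrsf25, had 5.39, 4.35 and 20.3 times its counts per kilobase in replicates 1, 2 and 3. Park7, 125 bases from Tnfrsf9, had 2.33, 2.91 and 2.98 times those of Tnfrsf9. Whether the strand setting matched the kit was not tested, and if it did not, the counts of members may be a small remainder of their reads.

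The label was checked against marker genes. All 8 T cell genes of the marker list (Cd3e, Cd3d, Cd3g, Cd4, Cd28, Lck, Cd5 and Trac) reached 1 TPM in every library, with a summed level of 1475, 1109 and 715 TPM in replicates 1, 2 and 3. Of these Cd3e has opposite-strand exons. Of the 6 genes of the Th1 list only Il12rb2 and Stat4 did so, and Il12rb2 has opposite-strand exons. Tbx21, the defining Th1 regulator, had 2, 10 and 2 counts, or 0.357, 3.15 and 0.506 TPM. Ifng, the defining Th1 cytokine, had 1, 0 and 0 counts. T cell markers were thus present, whereas Tbx21 and Ifng were low or at 0. The Th1 part of the label is not borne out by the RNA of these genes, and the label is kept below as a name only. How far the 16 hr tag or the strand setting bears on their counts was not tested. In bulk RNA, fewer cells of a type and less RNA per cell cannot be told apart.

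Of the 18 ligands, 8 were detected, meaning at least 1 TPM in every library, 7 were under 1 TPM in every library and 3 passed in part of the libraries. Of the 26 receptors, 13 were detected, 10 were under 1 TPM in every library and 3 passed in part. The detected share was 44.4% of ligands and 50% of receptors, and the same call was made for 39.8% of all 21764 coding genes, so neither share lies far from that of coding genes in general. Among coding genes without opposite-strand exons the share was 33.5%. Under 1 TPM in every library were 51.1% of all coding genes and 57.4% of those without opposite-strand exons. In 13 of the 46 members there was no count in any library, and the share of all genes with that call is not given here. Of the 46 members 31, 24 and 31 had counts in replicates 1, 2 and 3. Of all 50600 genes 16838, 12527 and 15976 did. Within each class the levels were concentrated in a few genes. The highest 4 ligands, Lta, Cd40lg, Tnf and Tnfsf11, held 83.6% ± 3.40 of the summed ligand TPM (SD, n = 3), and the highest 2 receptors, Tnfrsf4 and Tnfrsf18, held 66.7% ± 2.65 of the summed receptor TPM.

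**Figure D1:**
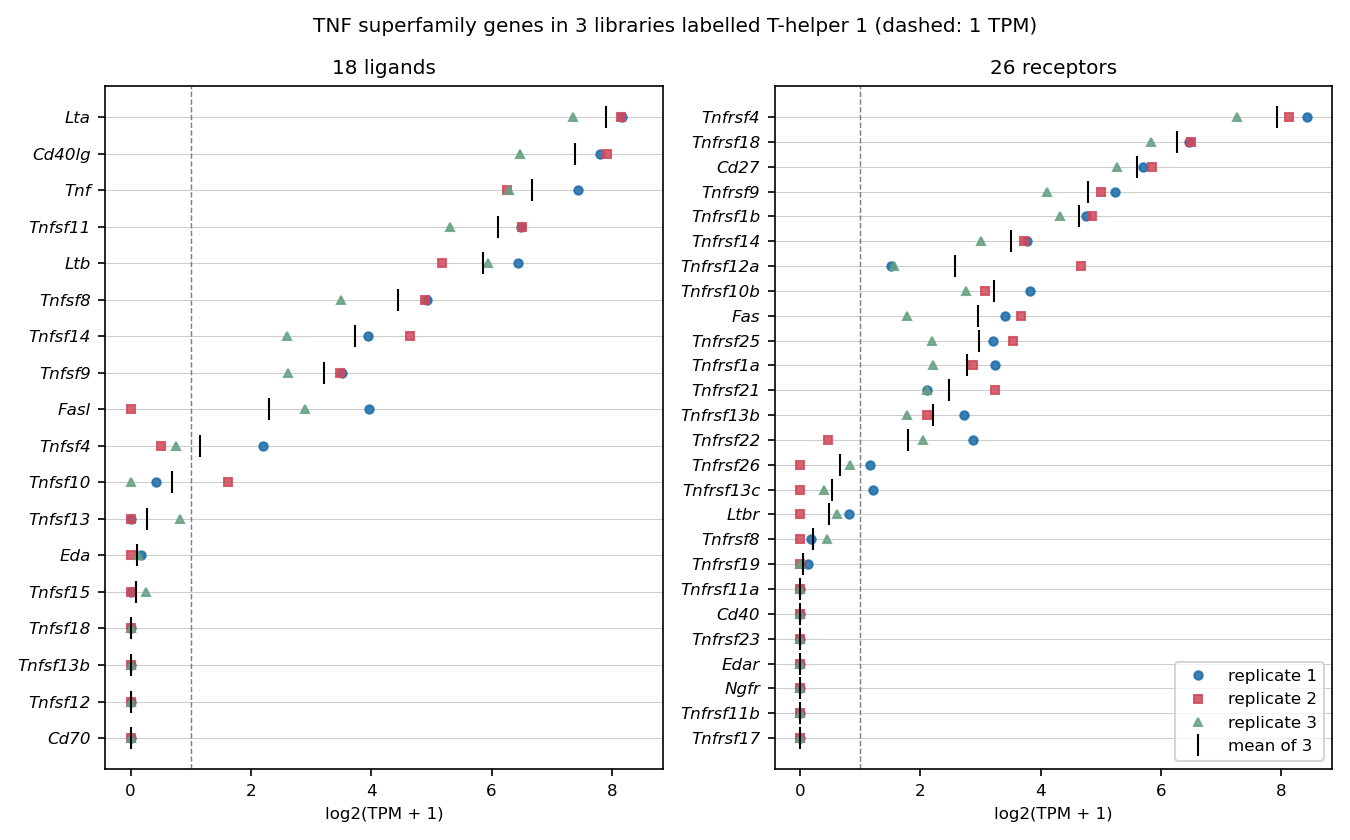
Level of each ligand (left) and receptor (right) as log2(TPM + 1) in replicates 1, 2 and 3, with the mean as a bar and 1 TPM as a dashed line. Lta and Tnfrsf4 head the panels, and Fasl and Tnfrsf12a show the widest gaps between replicate 2 and the other libraries.

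The TNF and lymphotoxin genes were all detected. Lta, which encodes lymphotoxin alpha, a secreted ligand of the TNF receptors, had 288, 282 and 163 TPM in replicates 1, 2 and 3, a mean of 244 ± 70.6 (SD, n = 3). Of all coding genes, 98.5% had a lower mean. Tnf, the inflammatory cytokine itself, had 173, 75.1 and 77.5 TPM (108.5 ± 55.8), with replicate 1 above the other libraries. Ltb, the membrane anchor that joins lymphotoxin alpha in a surface trimer, had 85.4, 35.2 and 60.2 TPM (60.3 ± 25.1). In each of the 3 libraries the order was Lta, Tnf, Ltb. These levels are shares of a total most of which is held by genes with opposite-strand exons: with those genes left out of the total, Lta had 861, 917 and 793 TPM (857 ± 61.8), and the other detected members without opposite-strand exons moved up with it, Tnfrsf4 to a mean of 887 ± 142 TPM. Within a library this leaves the ratios between such members as they were. The trio lies within 10913 bases of chromosome 17 (mm10), with Ltb on the plus strand and Tnf and Lta on the minus strand. None of them has an opposite-strand exon overlap, although Ltb and Tnf face each other across 3061 bases.

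The 250 bases before the RefSeq start (GRCm38.p6, the mm10 assembly) are shown for these neighbours and for Tnfrsf4, the highest receptor, because the trio of neighbours was detected together and the counts of all 4 are free of exon overlap with the opposite strand. Capitals mark matches, on either strand, to the NF-kB consensus, the TATA motif TATAAA, the AP-1 motif TGANTCA and the NFAT core TGGAAA.
Lta, chr17:35205352-35205601, minus strand: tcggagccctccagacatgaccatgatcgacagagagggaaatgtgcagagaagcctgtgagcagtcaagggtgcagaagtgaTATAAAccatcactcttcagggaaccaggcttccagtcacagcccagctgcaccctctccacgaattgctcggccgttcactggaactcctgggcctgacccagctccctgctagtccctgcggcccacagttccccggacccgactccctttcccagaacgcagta
Tnf, chr17:35202008-35202257, minus strand: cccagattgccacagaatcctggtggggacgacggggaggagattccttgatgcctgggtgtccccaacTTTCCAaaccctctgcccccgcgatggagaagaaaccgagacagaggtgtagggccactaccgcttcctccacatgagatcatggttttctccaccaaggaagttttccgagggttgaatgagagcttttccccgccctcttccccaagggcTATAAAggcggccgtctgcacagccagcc
Ltb, chr17:35194257-35194506, plus strand: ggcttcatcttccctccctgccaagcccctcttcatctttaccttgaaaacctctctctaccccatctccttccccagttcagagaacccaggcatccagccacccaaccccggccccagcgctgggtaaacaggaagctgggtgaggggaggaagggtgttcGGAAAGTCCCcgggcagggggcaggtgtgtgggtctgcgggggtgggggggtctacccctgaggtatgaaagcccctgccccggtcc
Tnfrsf4, chr4:156013445-156013694, plus strand: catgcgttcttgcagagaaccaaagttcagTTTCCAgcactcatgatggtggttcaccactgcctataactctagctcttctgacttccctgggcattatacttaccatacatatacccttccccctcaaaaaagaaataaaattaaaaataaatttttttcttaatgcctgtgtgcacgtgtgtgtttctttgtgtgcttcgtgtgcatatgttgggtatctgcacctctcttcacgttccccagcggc
TATAAA starts at -29 in Tnf and at -167 in Lta, counted from the RefSeq start, and no match lies in the windows of Ltb and Tnfrsf4. The NF-kB consensus has a match at -87 in Ltb alone. For Ltb and Tnfrsf4 the RefSeq start differs from the start of the counted gene, at 35194439 and 156013843. The Ltb window thus reaches into the counted gene, and the Tnfrsf4 window ends short of it. TGGAAA matches at -181 in Tnf and at -220 in Tnfrsf4, both on the reverse strand, and TGANTCA matches none of the 4. No motifs overlap here. Of all 32851 RefSeq windows of this length, 12.4% hold TATAAA, 7.25% the NF-kB consensus, 18.6% TGGAAA and 6.75% TGANTCA. Of the 44 ligands and receptors, 34 have a window in the table. TATAAA occurs in 3 of 6 detected ligands with a window and in 1 of the 7 others, and in 0 of 12 detected receptors and 2 of the 9 others. In the same order the NF-kB consensus occurs in 1, 0, 2 and 1 windows. TGANTCA occurs in 1, 2, 2 and 1, and TGGAAA in 2, 1, 3 and 1. With so few windows, no difference between these groups is read from any motif. A match is a description of letters, and nothing here measured binding.

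Among the 8 costimulatory ligands, 4 were detected, led by Cd40lg, the surface ligand with which helper T cells license B cells and dendritic cells. Cd40lg had 221, 240 and 87.5 TPM in replicates 1, 2 and 3 (183 ± 83.1; SD, n = 3), and replicate 3 was the low library. This gene is X-linked, and the libraries differ in Xist and Y-linked counts as given above. Tnfsf8, the CD30 ligand gene, had 29.4, 28.8 and 10.2 TPM (22.8 ± 10.9). Tnfsf14, which encodes LIGHT, had 14.3, 24.0 and 5.07 TPM (14.5 ± 9.48), so its replicates did not agree on a level. Tnfsf9, the 4-1BB ligand gene, had 10.5, 10.2 and 5.11 TPM (8.59 ± 3.01). Tnfsf4, the OX40 ligand gene, passed in replicate 1 alone with 15, 1 and 2 counts, or 3.61, 0.426 and 0.683 TPM. The remaining 3 were at the floor. Tnfsf15, which encodes TL1A, had 0, 0 and 1 counts. Cd70, the CD27 ligand gene, and Tnfsf18, the GITR ligand gene, had 0 counts in every library, which allows up to 1.58, 2.79 and 2.24 TPM for Cd70 and up to 0.644, 1.14 and 0.913 TPM for Tnfsf18 in replicates 1, 2 and 3 by counting error alone.

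Both death ligands were uneven between libraries. Fasl, the ligand of the death receptor Fas, had 64, 0 and 20 counts in replicates 1, 2 and 3, or 14.7, 0 and 6.49 TPM. The count of 0 in replicate 2 allows up to 1.21 TPM, below the other libraries. Cytotoxic lymphocytes also use Fasl, and their list (Cd8a, Cd8b1, Ncr1, Klrb1c and Prf1) summed to 29.2, 7.93 and 15.5 TPM in the same order. Of that list Cd8b1 alone was detected, with 97, 15 and 36 counts, while Cd8a and Ncr1 had no count, and the part of these cells in the Fasl counts was not tested. Tnfsf10, the TRAIL gene, had 4, 14 and 0 counts, with its highest level of 2.08 TPM in replicate 2.

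Among the ligands for bone, B cell and tissue receptors, only Tnfsf11 was detected. Tnfsf11 encodes RANKL, the osteoclast and lymph node organogenesis factor that activated T cells also make, and it had 88.7, 90.1 and 38.8 TPM in replicates 1, 2 and 3 (72.5 ± 29.2; SD, n = 3). Eda, the X-linked ectodysplasin gene, had 2, 0 and 1 counts. The B cell survival factor genes were at the floor, with 0, 0 and 2 counts for Tnfsf13 (APRIL) and 0 in every library for Tnfsf13b (BAFF). Tnfsf12, the TWEAK gene, was also at 0 in every library. Tnfsf12 and Tnfsf13 share 731 and 983 exon bases with the readthrough gene Tnfsfm13 on their own strand, and the recorded counting command has no option to assign a read to more than 1 gene, so reads in the shared exons would not be counted for any of them. Cd70 and Tnfsf18 share no exon with another gene. Tnfsfm13 and Tnfsf13os had no counts.

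Costimulatory receptors stood above the other receptor groups, with 6 of 7 detected and a median of 28.0 TPM over the members' means. Tnfrsf4, which encodes OX40, the receptor that sustains activated helper T cells, had 341, 278 and 152 TPM in replicates 1, 2 and 3 (257 ± 96.5; SD, n = 3). It had the highest mean of all 46 members, close to that of Lta, and the difference between these 2 genes was within the spread between replicates. Tnfrsf18, the GITR gene, had 87.6, 89.0 and 55.7 TPM (77.4 ± 18.8), beside the much larger counts of its antisense neighbour. Cd27, the receptor of naive and memory lymphocytes that binds CD70, had 51.1, 56.6 and 37.3 TPM (48.3 ± 9.94). Cd27 shares 129 exon bases with Mir8113 on its own strand, where reads would not be counted for either gene. Vamp1, the gene whose body Cd27 overlaps on the opposite strand, had 83, 15 and 73 counts, or 0.0709, 0.0204 and 0.121 times the counts of Cd27 per kilobase. Tnfrsf9, the 4-1BB gene induced by activation, had 36.7, 31.1 and 16.2 TPM (28.0 ± 10.6). Tnfrsf1b, the TNF receptor without a death domain, had 25.9, 27.9 and 18.9 TPM (24.3 ± 4.71). Tnfrsf14, the HVEM gene, had 12.6, 12.2 and 7.04 TPM (10.6 ± 3.09). The exception was Tnfrsf8, the CD30 gene, with 1, 0 and 2 counts. In order of mean, Tnfrsf9 and Tnfrsf1b did not differ beyond their spread, whereas Tnfrsf4 exceeded Tnfrsf18 in every library.

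Of the 7 death domain receptors, 5 were detected, all at low levels and close together. Tnfrsf10b, the mouse TRAIL death receptor gene, had 13.1, 7.42 and 5.75 TPM in replicates 1, 2 and 3. Fas, the receptor of activation-induced death, had 9.60, 11.8 and 2.44 TPM. Tnfrsf25, which encodes DR3, the receptor of TL1A, had 8.18, 10.7 and 3.59 TPM. Their means lay between 7.48 and 8.77 TPM, closer to each other than the spread of any of them. Tnfrsf1a, the death domain receptor of TNF, had 8.39, 6.35 and 3.64 TPM (6.13 ± 2.38; SD, n = 3), below Tnfrsf1b in every library. Tnfrsf21, the DR6 gene, had 3.30, 8.43 and 3.30 TPM, with replicate 2 the high library. Ngfr, the neurotrophin receptor, and Edar, the ectodysplasin receptor, had 0 counts in every library, which allows up to 0.682 TPM for Ngfr and 0.647 TPM for Edar in the shallowest library.

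Receptors of B cells and antigen-presenting cells were low. Tnfrsf13b, the TACI gene, was the detected one, with 36, 12 and 11 counts or 5.63, 3.32 and 2.44 TPM in replicates 1, 2 and 3. Tnfrsf13c, the BAFF receptor gene, had 6, 0 and 1 counts. Cd40, the receptor of CD40 ligand on B cells and dendritic cells, and Tnfrsf17, the BCMA gene of plasma cells, had none. Among B cell genes, Cd79a had 27, 0 and 17 counts, or 8.22, 0 and 7.34 TPM, so like Tnfrsf13c it had no count in replicate 2 alone. Cd79b had 1, 0 and 0 counts, and Ms4a1 and Pax5 had none. The part of B cells in the counts of these receptors was not tested. The dendritic cell list (Flt3, Xcr1, Itgax and Zbtb46) summed to 1.16, 4.80 and 0.719 TPM in replicates 1, 2 and 3 with no detected member, and its defining genes Flt3 and Itgax had 0 counts. In the macrophage list (Lyz2, Itgam, Cd14, Adgre1 and Csf1r), Csf1r alone had counts, at 121, 112 and 137 TPM, and it has opposite-strand exons.

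Tissue and decoy receptors were mostly near 0, apart from Tnfrsf12a, which was high in replicate 2, and Tnfrsf22, which was low there. Tnfrsf12a, which encodes the TWEAK receptor Fn14, had 4, 30 and 3 counts in replicates 1, 2 and 3, or 1.84, 24.4 and 1.96 TPM. The exact 95% counting interval of the 30 counts, 20.2 to 42.8, lies above those of the other libraries, 1.09 to 10.2 and 0.619 to 8.77, although replicate 2 was the smallest library. Hcfc1r1, the opposite neighbour of Tnfrsf12a 220 bases away, had 484, 241 and 410 counts. Per kilobase these were 122, 8.08 and 137 times the counts of Tnfrsf12a. In the list of stromal, endothelial and epithelial genes (Col1a1, Pdgfra, Pecam1 and Epcam), Pecam1 alone was detected, and Col1a1 and Pdgfra had 0 counts. The summed level was 4.72, 3.66 and 2.23 TPM, of which Pecam1 gave 3.85, 3.27 and 1.92. The part of such cells, or of the neighbour, in the Tnfrsf12a counts was not tested. Ltbr, the lymphotoxin beta receptor of stromal and myeloid cells, had 4, 0 and 2 counts, Tnfrsf19 had 1, 0 and 0, and Tnfrsf11a, the RANK gene, had none. Among the decoys, Tnfrsf22 had 60, 2 and 21 counts, or 6.31, 0.372 and 3.13 TPM, Tnfrsf26 had 9, 0 and 4, and Tnfrsf23 and the osteoprotegerin gene Tnfrsf11b had none. Tnfrsf22, Tnfrsf23 and Tnfrsf26 are related neighbours on chromosome 7, so reads shared between them could have been split or lost in counting.

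As a class, ligands lay above receptors on average. The mean log2(TPM + 1) was 3.08, 2.73 and 2.50 over the 18 ligands and 2.33, 2.22 and 1.87 over the 26 receptors in replicates 1, 2 and 3, beside 1.92, 1.76 and 1.62 over all coding genes. The ligand minus receptor difference was 0.75, 0.51 and 0.63 in the same order, or 0.63 ± 0.12 (SD, n = 3), with ligands higher in 3 of 3 libraries. No test was made, since genes of a list are not replicates. The difference followed the highest genes: with the median over members in place of the mean it was 1.06, -0.21 and 0.04 (0.29 ± 0.67), so the middle ligand and the middle receptor did not differ beyond the spread. The size of the difference also depended on which members entered. It was 1.04 over members with a mean of at least 1 TPM. Over members that share no exon on their own strand, which leaves out Cd27, Tnfsf12 and Tnfsf13, it was 1.10. The difference was 2.01 over the 11 ligands and 14 receptors with no opposite-strand gene within 5 kb. That last set leaves out Tnfrsf4 and Tnfrsf18 along with Tnf and Ltb.

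The family was then read as ligand and receptor pairs, to ask which partners were present together in these cells. Of 25 textbook pairs, 21 had at least 1 detected partner. Both partners were detected in 6 pairs, the ligand alone with its receptor under 1 TPM everywhere in 6, the receptor alone with its ligand under 1 TPM everywhere in 6, and the receptor with a ligand seen in part of the libraries in 3. These counts stand beside detected shares of 44.4% of ligands and 50% of receptors. Whether partners were detected together beyond those shares was not tested.

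Ligands without their receptor were led by Cd40lg. Against the 3 counts that a count of 0 allows in each library, Cd40lg was at least 565, 348 and 158 times higher than Cd40 in TPM in replicates 1, 2 and 3. In the same terms Tnfsf11 was at least 399, 229 and 123 times higher than Tnfrsf11a, its signalling receptor, and at least 188, 108.0 and 58.0 times higher than Tnfrsf11b, its soluble decoy. Ltb had 131 times the counts per kilobase of Ltbr over the libraries together, with an exact 95% counting interval of 59.6 to 358. Tnfsf8 had 137.5 times those of Tnfrsf8, from 3 counts of the receptor (46.8 to 669). Tnfsf14 had 27.9 times those of Ltbr (12.5 to 77.3), with a log2 ratio in TPM + 1 of 3.13, 4.65 and 1.99 in replicates 1, 2 and 3. These intervals of pooled counts do not cover the spread between libraries.

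Receptors far above their ligand were led by the OX40 and GITR genes. The log2 ratio of Tnfsf4 to Tnfrsf4 in TPM + 1 was -6.21, -7.61 and -6.50 in replicates 1, 2 and 3. Tnfrsf18 was at least 136, 78.2 and 61.0 times higher than Tnfsf18, and Cd27 at least 32.3, 20.3 and 16.6 times higher than Cd70. Over the libraries together, Tnfrsf25 had 126 times the counts per kilobase of Tnfsf15, from 1 count of the ligand (22.1 to 5050). Tnfrsf10b had 14.1 times those of Tnfsf10 (8.64 to 24.5), but the libraries did not agree. The log2 ratio of Tnfsf10 to Tnfrsf10b in TPM + 1 was -3.40, -1.45 and -2.76, a spread that the counting interval does not cover. Tnfrsf13b was at least 29.1, 9.69 and 8.88 times higher than Tnfsf13b, and it had 17.0 times the counts per kilobase of Tnfsf13, from 2 counts of the ligand (4.51 to 144). For Tnfrsf12a over Tnfsf12 the bounds were 2.10, 15.7 and 1.57, where the ligand is a gene whose shared exons go uncounted.

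Pairs with both partners detected were the TNF receptor pairs, Tnfsf14 with Tnfrsf14 and Tnfsf9 with Tnfrsf9. The log2 ratio of ligand to receptor in TPM + 1 was 5.12 ± 0.16 for Lta to Tnfrsf1a and 3.25 ± 0.20 for Lta to Tnfrsf1b (SD, n = 3). For Tnf it was 3.89 ± 0.45 to Tnfrsf1a and 2.02 ± 0.65 to Tnfrsf1b. These ratios were above 0 in 3 of 3 libraries and larger than their spread. Tnfsf9 to Tnfrsf9 was -1.58 ± 0.12, below 0 in 3 of 3 libraries. Tnfsf14 to Tnfrsf14 was 0.17, 0.93 and -0.40 in replicates 1, 2 and 3, with no direction beyond the spread, and without replicate 2 its mean turned to -0.12. Fasl, which passed in part of the libraries, had a log2 ratio to Fas of 0.56, -3.67 and 1.12, a mean of -0.66 that turned to 0.84 without replicate 2, the library with no Fasl count.

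**Figure D2:**
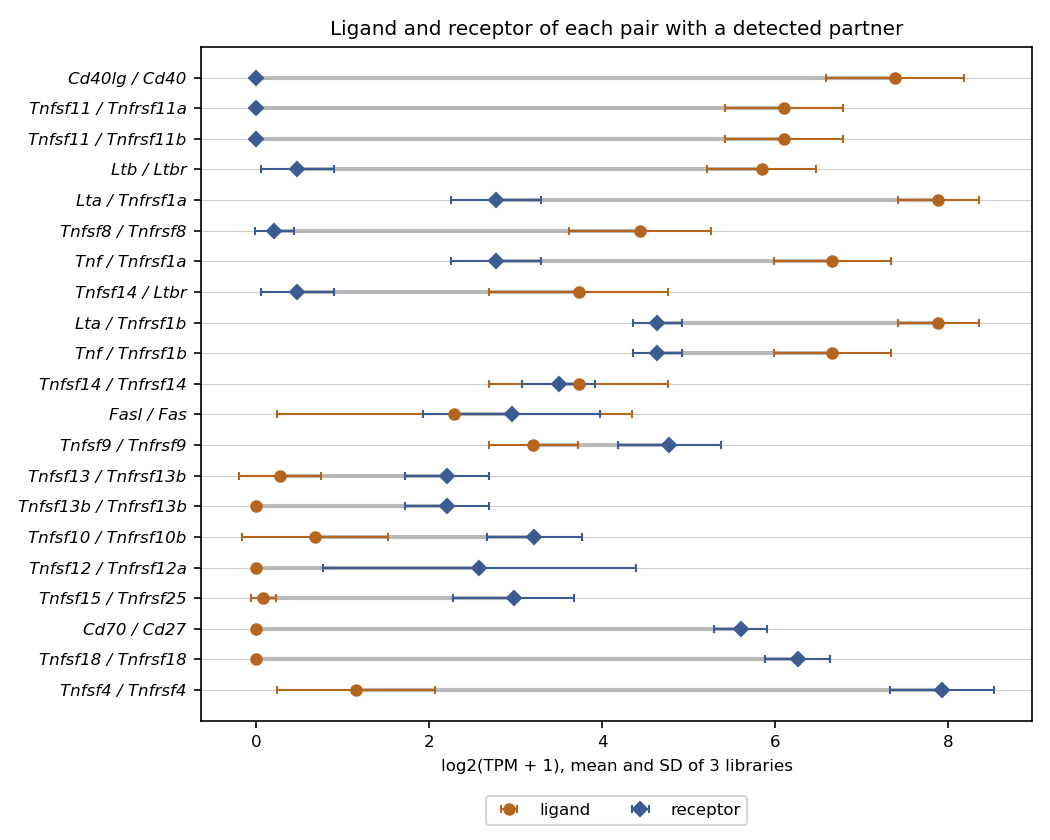
Ligand (circle) and receptor (diamond) of the 21 pairs with a detected partner, as mean log2(TPM + 1) with the SD of 3 libraries, sorted by the difference. Cd40lg with Cd40 lies at the ligand end, Tnfsf4 with Tnfrsf4 at the receptor end, and the bars of Tnfsf14 with Tnfrsf14 and of Fasl with Fas overlap.

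Many members are neighbours in the genome. This may not be independent of a choice made by family name, and no share for other genes is given here. Of the 44 ligands and receptors, 22 lay within 200 kb of another, in 9 groups of 2 or 3 genes. Every gene was detected in 2 of these groups, though at different levels: all of Ltb, Tnf and Lta were detected, and so were Tnfrsf4 and Tnfrsf18, which lie within 15053 bases of chromosome 4. Elsewhere a detected gene sat beside one near 0. On chromosome 17, Cd70 with no counts lies between Tnfsf9 (8.59 TPM ± 3.01; SD, n = 3) and Tnfsf14 (14.5 ± 9.48) in a stretch of 88805 bases. On chromosome 4, Tnfrsf8 (0.164 ± 0.184) lies beside Tnfrsf1b (24.3 ± 4.71), and Tnfsf15 (0.0626 ± 0.108) beside Tnfsf8 (22.8 ± 10.9). On chromosome 6, Ltbr (0.429 ± 0.388) lies between Cd27 (48.3 ± 9.94) and Tnfrsf1a (6.13 ± 2.38). In each of these cases the values of the detected gene and of its neighbour did not overlap between libraries. The remaining 3 groups, Tnfsf4 with Tnfsf18, Tnfsf13 with Tnfsf12, and the decoys Tnfrsf26, Tnfrsf22 and Tnfrsf23, held no detected gene.

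**Figure D3:**
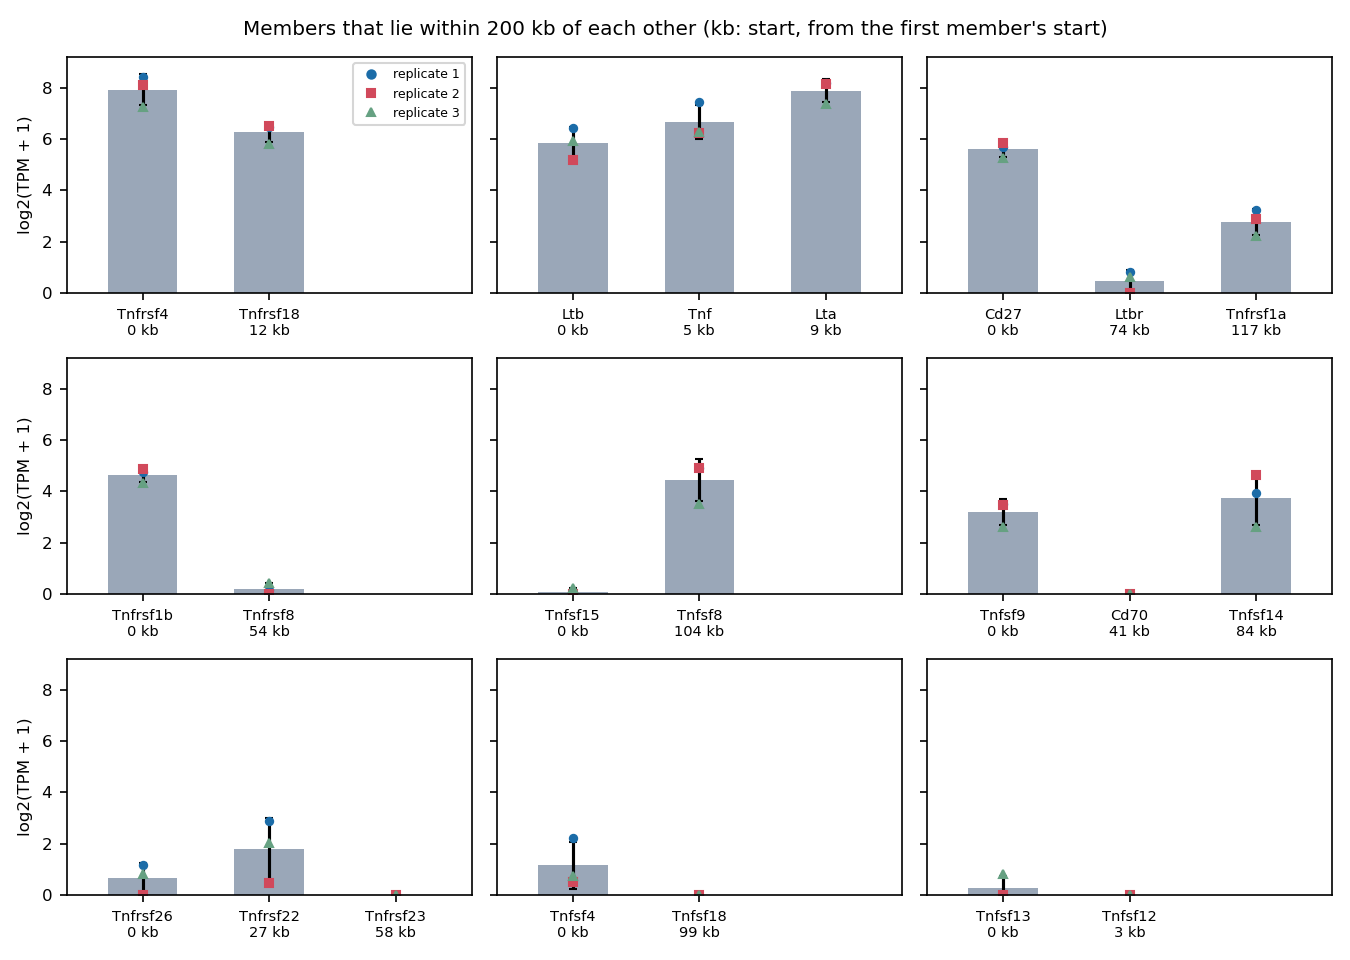
Mean log2(TPM + 1) of members within 200 kb of each other, with the SD of 3 libraries and a point per replicate; the kb value is the distance from the first member of the group. Tnfrsf4 with Tnfrsf18 and the Ltb, Tnf and Lta trio are high throughout, while Cd70, Ltbr, Tnfrsf8 and Tnfsf15 are near 0 beside a detected neighbour.

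Between libraries, 18 of the 21 detected members had their lowest TPM in replicate 3, the library with the lowest shift, and with the shift removed 12 of 21 were lowest there. The SD of log2(TPM + 1) had a median of 0.64 over the 24 ligands and receptors with a mean of at least 1 TPM, beside 0.52 over the 9932 coding genes with the same mean. After scaling by edgeR's TMM factors the values were 0.39 and 0.33. In edgeR's fit across 9466 genes, 19 members entered, their median tagwise biological coefficient of variation was 0.297 against 0.308 over all genes fitted, and 8 of 19 lay above that median. Of the 24, Fasl, Tnfrsf12a, Tnfrsf22, Fas and Tnfsf4 did not pass the filter of that fit. The fit therefore leaves out the members with the widest deviations, given below, and does not show that members as a whole vary no more than other genes.

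Single members differed between libraries beyond the library shift. With the shift removed, Tnf deviated by 0.46, -0.52 and 0.04 from its own mean and Ltb by 0.26, -0.78 and 0.50 in replicates 1, 2 and 3, so these neighbours were both lowest in replicate 2, unlike Lta at -0.04, 0.15 and -0.13. Cd40lg (0.08, 0.42 and -0.51), Tnfsf11 (0.06, 0.30 and -0.38), Tnfsf8 (0.16, 0.35 and -0.54), Tnfsf14 (-0.11, 0.81 and -0.72) and Fas (0.13, 0.61 and -0.76) had another order, highest in replicate 2 and lowest in replicate 3. The widest deviations were those of Fasl (1.36, -2.40 and 1.02), Tnfrsf12a (-1.39, 1.98 and -0.61) and Tnfrsf22 (0.76, -1.44 and 0.66), all of them set by replicate 2, the library with few genes at low counts. How far that property of replicate 2 sets these values was not tested. Cd27, Tnfrsf1b, Tnfrsf18 and Lta varied least among members above 20 TPM, with an SD of 0.31, 0.28, 0.38 and 0.46.

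**Figure D4:**
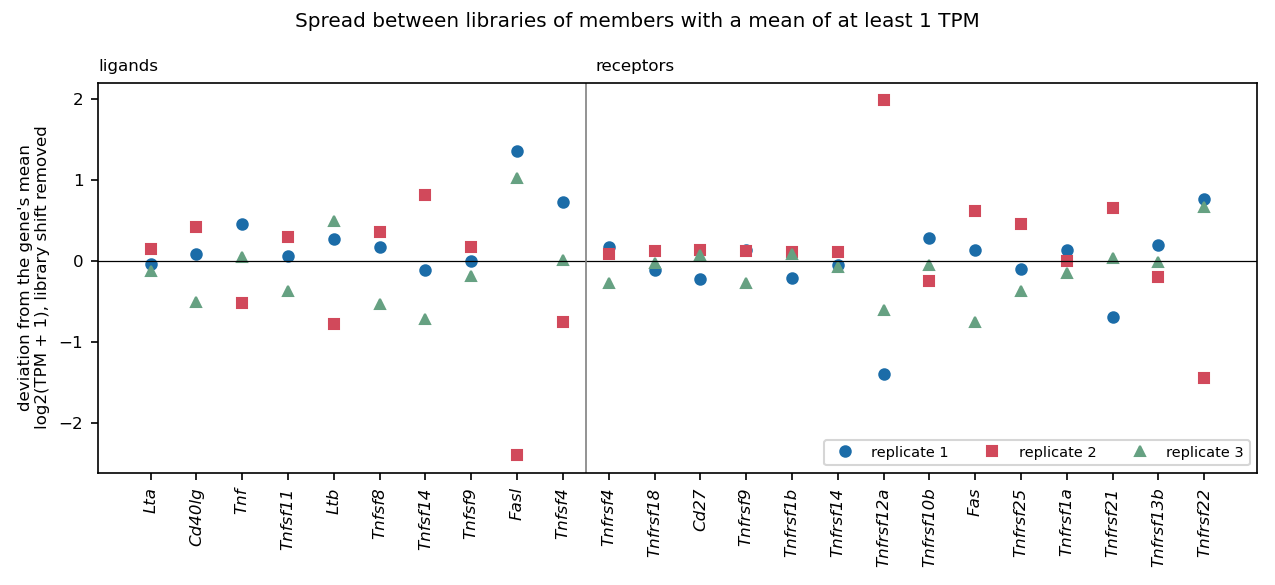
Deviation of each ligand and receptor with a mean of at least 1 TPM from its own mean log2(TPM + 1), with the library shift removed, in replicates 1, 2 and 3. Fasl and Tnfrsf22 are low and Tnfrsf12a is high in replicate 2, while the receptors Tnfrsf18, Cd27 and Tnfrsf1b stay near 0.

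RNA of nearly all listed genes of the intracellular side was detected. Of 36 adaptor and signalling genes downstream of these receptors, 35 were detected (97.2%, against 39.8% of coding genes), with a median of 13.5 TPM over the genes' means. Many of these genes are used by most cell types, and the list was chosen with earlier results of these data known. The share is thus a description of the list alone. Nfkbia, the inhibitor that NF-kB induces, was the highest at 225, 164 and 124 TPM in replicates 1, 2 and 3 (171 ± 50.7; SD, n = 3). Nfkb2 and Nfkb1, which encode NF-kB precursors, followed at 111 ± 24.2 and 74.0 ± 22.7 TPM, and Nfkb2 has opposite-strand exons, as do 5 other genes of the list. Otulin, a deubiquitinase of linear chains, had 45.8 ± 21.2 TPM. Tab1, a partner of the kinase TAK1, was the gene that missed, with 30, 2 and 23 counts, low in replicate 2 alone.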

How the data were processed

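RNA of 3 libraries labelled T-helper 1 was sequenced. Per the file headers, the authors deposited whole-number counts per gene from featureCounts v1.4.6-p4, run on read pairs with both ends aligned, strand setting 1 and the exons of GENCODE vM13 (mm10). Exon lengths were deposited beside the counts. The aligner's version is not given in the sources used here, nor are the kit and the strand it marks. The files hold counts and not another unit, as the design assumed. TPM was computed from counts and lengths, and log values use a pseudocount of 1.

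Symbols came from GENCODE vM21 (50376 of 50600 identifiers). Overlapping exons and neighbours were found from the tables' own coordinates. Members, lists, pairs and groups by role were chosen with earlier results of these data known. Every member is named, pairs are given where a partner was detected, and of the 36 signalling genes the 4 highest and those that missed are named. The summed level of 1 marker list is not reported here. With 1 group no test between conditions was possible, and classes and lists are described by counts and means. Where a gene had a count of 0, its limit was set at 3 counts. Ratio and count intervals are exact at 95%, and intervals and limits cover counting error only. The edgeR fit used TMM, filterByExpr and an intercept alone; it and the overlap search were first tested on simulated data. Alternatives were other pseudocounts, units, scalings (TMM and DESeq2 size factors), thresholds and member sets, and each replicate left out. Promoter windows came from RefSeq (GRCm38.p6). The tools were edgeR 4.0.16 and DESeq2 1.42.0 in R 4.3.3, and SciPy 1.17.1, pandas 2.3.3, matplotlib 3.10.9 and numpy 2.4.6 in Python 3.11.15.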

Additional observations from a re-analysis of the deposited data

How the results depend on the processing

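The mean log2 ligand minus receptor difference was above 0 under every alternative run, but with the median over members it was within the spread between replicates and below 0 in replicate 2. The mean log2 difference of 0.63 was 0.29 with the median over members, 1.04 over members with a mean of at least 1 TPM, 0.80 without members that have opposite-strand exons, 2.01 without those that have an opposite-strand gene within 5 kb, and 1.10 without those that share exons on their own strand. It was 0.57 to 0.69 with a replicate left out. The last 2 member sets were added after the data were seen. At a TPM of 5 in every library 7 receptors were detected in place of 13. With no opposite-strand gene within 5 kb there were 5 of 11 ligands and 4 of 14 receptors, beside 8 of 18 and 13 of 26 over all. Most receptors that this set leaves out were detected, among them Tnfrsf4, Tnfrsf18, Cd27 and Tnfrsf9, so the detected share of receptors was lower in it. Detected ligands numbered 8 to 9, receptors 13 to 14 and signalling genes 35 to 36 with a replicate left out. The median SD of 0.64 was 0.39 with TMM scaling and 0.37 with DESeq2 size factors, which remove part of the library shift, and 0.23 to 0.71 with a replicate left out, lowest without replicate 3. Of 40 member levels, 30 moved by more than their SD when TPM was taken over genes with no opposite-strand exon. The other 10 had 0 counts in every library and so could not move. A rise was fixed in advance for every level with counts, since the genes left out hold most of the total. The 21 ligand to receptor log2 ratios kept their sign with a pseudocount of 0.1, where 15 moved by more than their SD, and in CPM, which leaves gene length out, where 6 did. With the pseudocount Tnfsf4 to Tnfrsf4 was -7.72 in place of -6.78, and in CPM Tnf to Tnfrsf1b was 0.83 in place of 2.02, Lta to Tnfrsf1b 1.82 in place of 3.25 and Tnfsf9 to Tnfrsf9 -2.62 in place of -1.58. Of these ratios 2 changed sign, both without replicate 2, and the cause was not tested. With a replicate left out, Tnfsf14 to Tnfrsf14 was -0.12 to 0.55 and Fasl to Fas -1.56 to 0.84, where the value without replicate 2 is -0.12 and 0.84. No paired analysis was possible because there is 1 group. Depth limits the members at 0, which could lie at up to 2.89 TPM for the short gene Tnfrsf17 in replicate 2.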
